A study of Saccharomyces cerevisiae with 36 samples.

Results

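The autophagy-related (ATG) genes of Saccharomyces cerevisiae were described across a cohesin acetyltransferase mutant, a cohesin loader mutant and their parent strain during amino acid starvation. Members were all genes whose symbol on the array platform is ATG followed by a number, and 34 of the 5449 named genes measured met this rule. Each was read by 1 probe set, so no choice between probe sets was needed. By the part each protein is known to play they were sorted into 13 core genes, 13 genes of the Cvt pathway and of selective autophagy, 6 regulatory genes and 2 genes that act in the vacuole. The tested strains carried eco1-W216G, a change in the acetyltransferase that acetylates cohesin, or scc2-D730V, a change in the cohesin loader. Each allele replaced the chromosomal gene and was marked with HYG. The comparison strain was WT. All 3 were haploid MATa W303 strains that also lacked BAR1 and carried ade2-1, can1-100, his3-1, trp1-1, ura3-1 and a leu2 allele. Cultures were sampled in log phase in rich medium with added amino acids (0 min) and after 15, 35 and 55 min in minimal medium without amino acids. Each of the 12 strain and time groups held 3 arrays from 3 cultures, 36 arrays in all. Each genotype was 1 strain, and whether the cultures of a strain came from separate clones was not given in the sources used here.

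Autophagy encloses cytoplasm in a membrane sac, the autophagosome, which fuses with the vacuole, where its content is broken down and the amino acids are returned to the cell. The ATG1 kinase complex starts the sac when TORC1 signalling drops, ATG9 vesicles and a lipid kinase complex that contains ATG14 build its first membrane, and the ubiquitin-like proteins ATG8 and ATG12 are joined to lipid or protein as it grows. The same machinery carries enzymes to the vacuole in growing cells through the cytoplasm-to-vacuole targeting (Cvt) pathway. Receptors such as ATG19, ATG32, ATG36, ATG39 and ATG40 bring chosen cargo to it. Nitrogen and amino acid starvation are the classic inducers in yeast.

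Values are log2 intensities after RMA, and a difference of 1 log2 unit is a 2-fold change. Differences between strains and times were tested within the same probe set only. Readings set beside BAR1, beside the highest intensity or between genes of a and alpha cells cross probe sets and were not tested. The deleted gene BAR1 averaged 4.57 in eco1-W216G, 4.71 in scc2-D730V and 4.73 in WT over 12 arrays each, which marks the reading of an absent transcript. Of the 34 members, ATG16 alone came within 1 log2 unit of BAR1, on 14 of the 36 arrays. ECO1 itself averaged 6.13 in eco1-W216G and 8.16 in WT, while SCC2 averaged 10.42 in scc2-D730V and 10.38 in WT. Array medians lay between 10.97 and 11.16, and the typical SD of a member within a group lay between 0.14 and 0.24. Genes of a cells were high and genes of alpha cells were low in each strain, as the MATa label says. In bulk RNA from whole cultures, fewer cells of a type and less RNA per cell cannot be told apart.

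In WT nearly the whole family rose after transfer from rich medium to minimal medium without amino acids. The transfer changed the whole medium, so the loss of amino acids and the other changes cannot be told apart. At 15 min 31 of the 34 members were called higher than at 0 min by limma at an adjusted p below 0.05, 31 at 35 min and 32 at 55 min. Over all 5716 probe sets tested, 37.2%, 36.9% and 36.2% were called higher at these times. The median log2 change of the members was 1.77, 1.58 and 1.60, against 0.02, 0.03 and 0.03 over all probe sets. All 6 regulatory genes and both vacuolar genes were called higher at each time. Of the core genes 12, 11 and 12 of 13 were, and of the Cvt and selective genes 11, 12 and 12 of 13.

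ATG39, a receptor for autophagy of the nuclear envelope and adjoining endoplasmic reticulum, changed most. It read 10.95, 10.65 and 11.01 in WT at 15 min, against 6.41, 7.10 and 7.30 in WT at 0 min. This is a 15.3-fold increase (log2 change 3.93, SE 0.25, adjusted p = 9.33e-14), and no array at 15 min came near any at 0 min. ATG29, a subunit of the scaffold that gathers the other proteins at the assembly site, read 10.55, 10.41 and 9.85 at 15 min, against 7.09, 7.00 and 6.46 at 0 min (log2 change 3.42, SE 0.24, adjusted p = 7.41e-13). ATG8, which coats the growing membrane, read 13.25, 13.01 and 13.03 at 15 min, against 10.09, 9.23 and 9.87 at 0 min (log2 change 3.37, SE 0.28, adjusted p = 1.16e-11). ATG34, a receptor that brings alpha-mannosidase to the vacuole during starvation, read 12.55, 12.57 and 12.42 at 15 min, against 9.51, 9.28 and 9.43 at 0 min (log2 change 3.11, SE 0.17, adjusted p = 3.24e-15). The 15 and 0 min arrays of these genes did not overlap, which was a condition for giving their values. Of the 34 members 31 lay higher without overlap at 15 min and 2 lower, against 39.5% and 38.2% of all probe sets.

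A few members hardly moved or went the other way. ATG27, a membrane protein needed for the traffic of ATG9, fell in WT, with 12.25, 12.21 and 12.20 at 15 min, against 12.84, 12.66 and 12.70 at 0 min (log2 change -0.51, SE 0.09, adjusted p = 7.51e-06). Its log2 change in WT was -0.60 at 35 min and -0.78 at 55 min. ATG10, the enzyme that joins ATG12 to ATG5, had log2 changes of -0.25, -0.19 and -0.31 at 15, 35 and 55 min in WT, none of which passed the test. ATG5 was called higher with changes of 0.31, 0.49 and 0.61, so its increase was small beside those of most of the family. ATG11, the scaffold of selective autophagy, did not pass the test at 15 min (-0.23) and was called higher at 35 min (0.34) and 55 min (0.69). ATG5 at 15 min lost its call without WT replicate 1 or 2 (adjusted p up to 0.088), and ATG11 at 35 min lost its call without WT replicate 2 (adjusted p = 0.115).

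**Figure D1:**
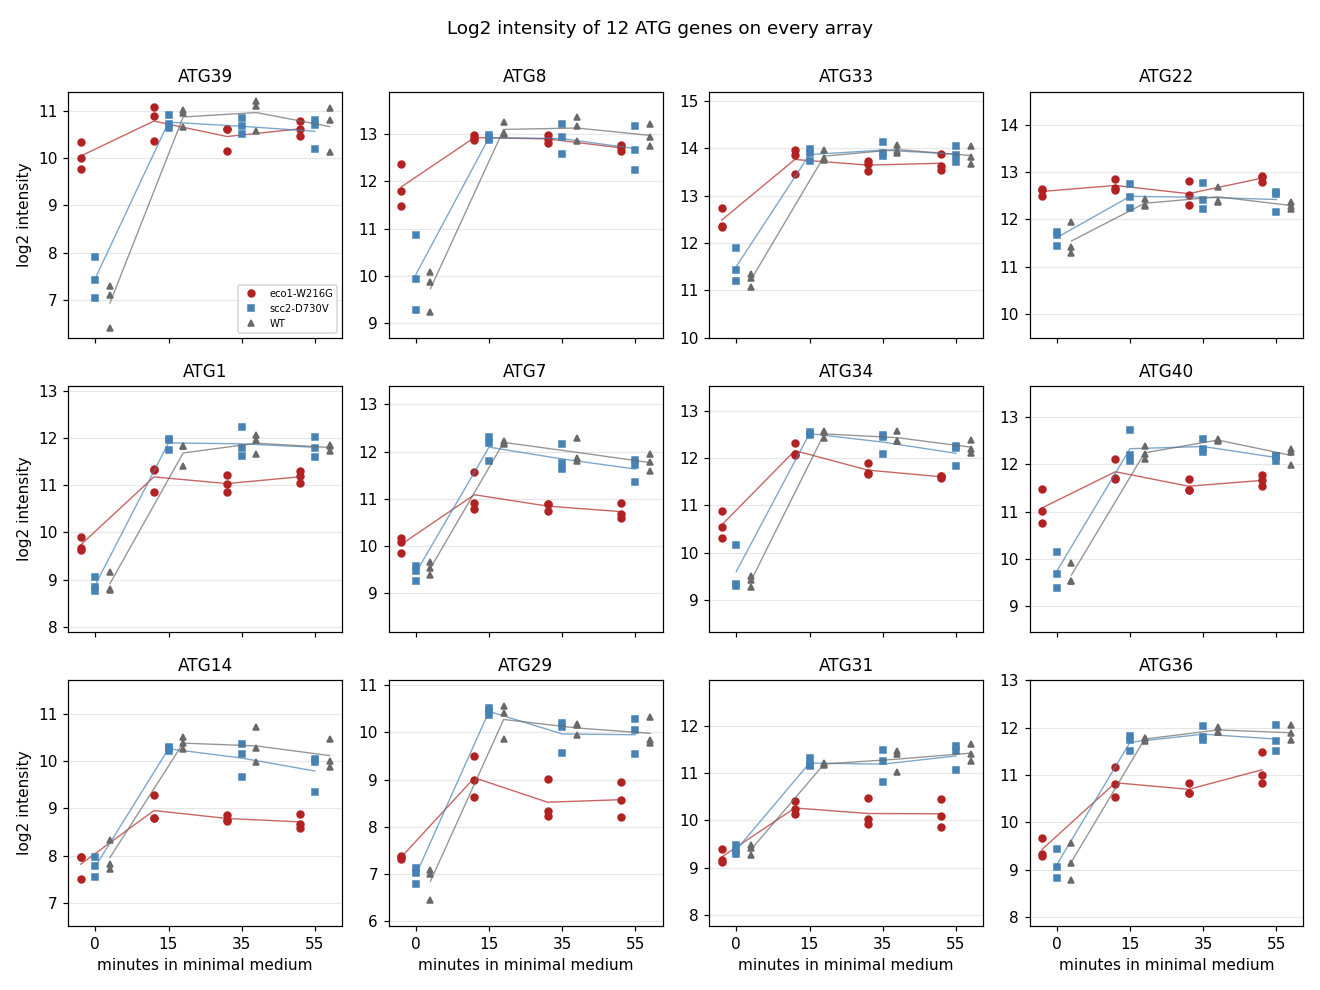
Log2 intensity (y axis) of 12 ATG genes on each of the 36 arrays by minutes in minimal medium (x axis, times evenly spaced), with eco1-W216G as circles, scc2-D730V as squares and WT as triangles; lines join group means of 3 arrays and all panels span 5.2 log2 units. At 0 min the 3 eco1-W216G arrays of ATG39 lie between 9.78 and 10.35, above the WT arrays at 6.41 to 7.30, and at 35 min those of ATG14 lie between 8.74 and 8.87, below the WT arrays at 9.97 to 10.72.

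In log phase, before any starvation, part of the family was already higher in eco1-W216G than in WT. At 0 min 13 of 34 members were called higher and 0 lower, against 13.7% of all probe sets called higher and 11.5% called lower. The median log2 ratio of eco1-W216G over WT was 0.34 over the members and -0.08 over all probe sets. The members called higher were 6 of 13 Cvt and selective genes (median 0.42), 5 of 13 core genes (median 0.16), 1 of 6 regulatory genes (median 0.43) and ATG22 of the vacuolar genes.

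ATG39 had the largest ratio of the family at 0 min. It read 10.00, 9.78 and 10.35 in eco1-W216G, against 6.41, 7.10 and 7.30 in WT, 8.60-fold higher (log2 ratio 3.10, SE 0.25, adjusted p = 2.04e-10). Its lowest eco1-W216G array lay more than 2 log2 units above its highest WT array. ATG40, the receptor for autophagy of the cortical endoplasmic reticulum, read 11.01, 10.75 and 11.48 in eco1-W216G, against 9.91, 9.54 and 9.53 in WT (log2 ratio 1.42, SE 0.18, adjusted p = 9.64e-07). ATG34 read 10.55, 10.32 and 10.89 in eco1-W216G, against 9.51, 9.28 and 9.43 in WT (log2 ratio 1.18, SE 0.17, adjusted p = 5.13e-06). ATG33, a protein of the mitochondrial outer membrane needed for autophagy of mitochondria, read 12.34, 12.36 and 12.75 in eco1-W216G, against 11.34, 11.27 and 11.06 in WT (log2 ratio 1.26, SE 0.16, adjusted p = 5.71e-07). For each of these genes all eco1-W216G arrays lay above all WT arrays, which was a condition for giving their per-array values. Of the 34 members 18 lay higher without overlap at 0 min and 1 lower, against 20.6% and 27.7% of all probe sets.

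ATG8 had the second largest ratio and ATG22 one just above 1 log2 unit. ATG8 read 11.80, 11.48 and 12.36 in eco1-W216G, against 10.09, 9.23 and 9.87 in WT, 4.44-fold higher (log2 ratio 2.15, SE 0.28, adjusted p = 8.85e-07). ATG22, a vacuolar exporter of amino acids, read 12.63, 12.50 and 12.64 in eco1-W216G, against 11.41, 11.28 and 11.94 in WT (log2 ratio 1.05, SE 0.16, adjusted p = 1.56e-05). Again the arrays did not overlap, which was a condition for giving these values. The other 7 calls were smaller. They were the kinase gene ATG1 (0.82), the ATG8-conjugating enzyme gene ATG3 (0.75), the mitochondrial receptor gene ATG32 (0.69), ATG41 (0.65), the Cvt receptor gene ATG19 (0.61), ATG10 (0.59) and ATG7, which encodes the enzyme that activates ATG8 and ATG12 (0.50).

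Of the 13 calls at 0 min, 10 held whichever replicate was left out. ATG7 lost its call without eco1-W216G replicate 1 or 3 or WT replicate 1 or 3, ATG10 without eco1-W216G replicate 1 or WT replicate 3, and ATG32 without eco1-W216G replicate 3 or WT replicate 3, with adjusted p up to 0.184, 0.101 and 0.08.

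**Figure D2:**
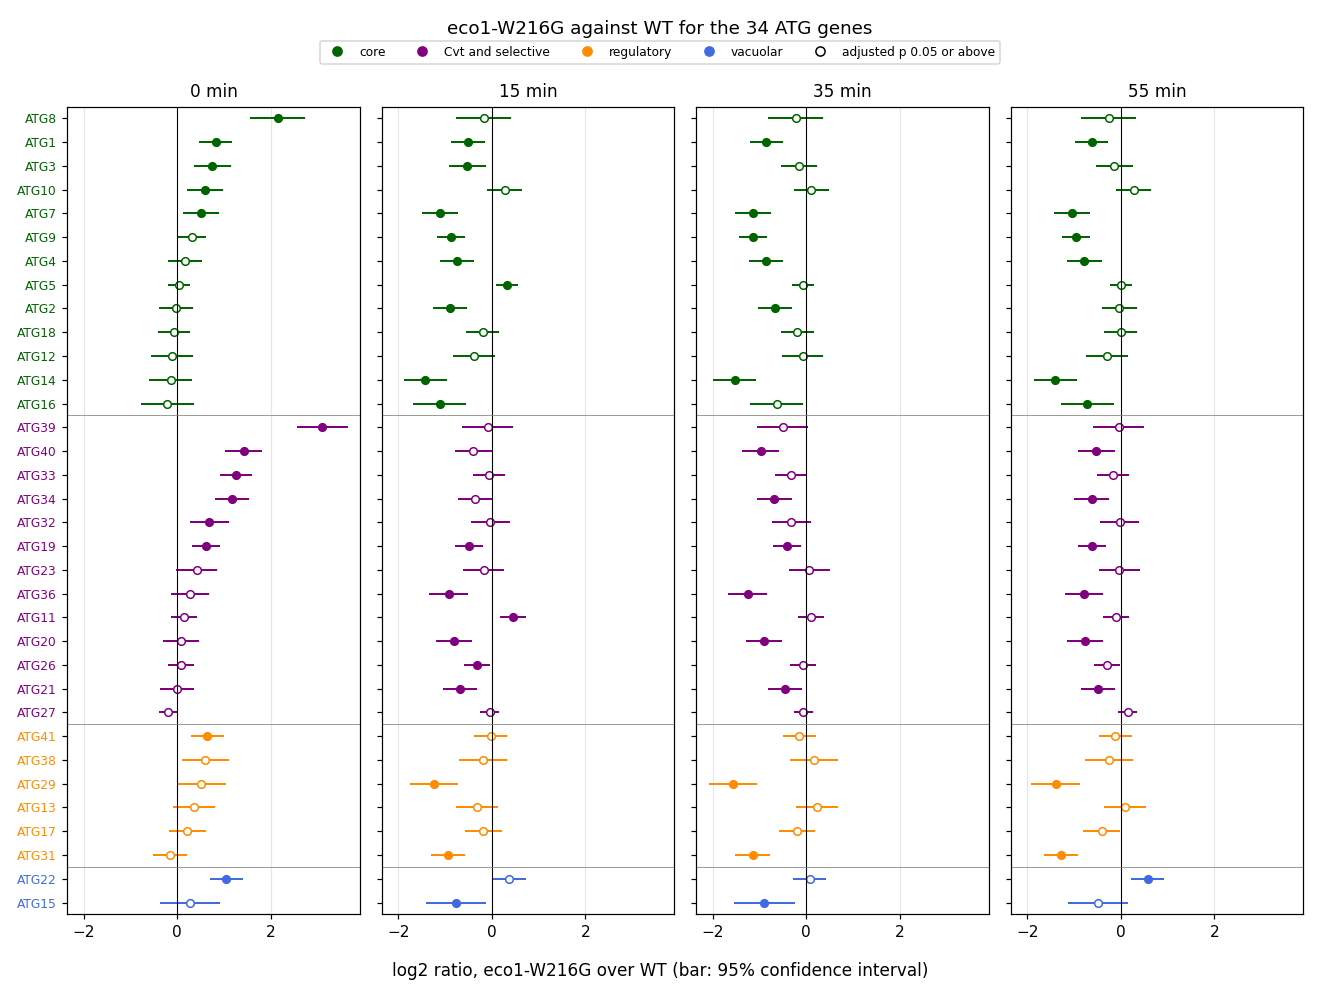
Log2 ratio of eco1-W216G over WT (x axis) for each of the 34 ATG genes (rows, grouped by role) at 0, 15, 35 and 55 min (panels), from 3 arrays a group; points are limma estimates, bars 95% confidence intervals, and filled points passed an adjusted p of 0.05. The 13 filled points at 0 min lie right of 0, while 16 of 18 at 15 min, 15 of 15 at 35 min and 14 of 15 at 55 min lie left of it.

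After starvation the direction changed, and the members that differed were mostly lower in eco1-W216G. At 15 min 16 members were called lower and 2 higher, against 22.7% of all probe sets called lower and 18.9% called higher. At 35 min 15 were called lower and 0 higher, against 26.8% and 20.1% of all probe sets. With array weights 21 were called lower and 2 higher at 35 min, but no share over all probe sets was computed with weights. At 55 min 14 were called lower and 1 higher, against 21.2% and 17.0% of all probe sets. The median log2 ratio of the members was -0.37, -0.37 and -0.30 at these times, and that of all probe sets was -0.08, -0.09 and -0.09. Without overlap of arrays 18, 19 and 17 members lay lower, against 32.4%, 34.6% and 31.1% of all probe sets. In the same way 3, 0 and 1 lay higher, against 24.2%, 24.0% and 21.7%. No overlap was a condition for giving per-array values of eco1-W216G and WT below, except for ATG8 and the pairs of related genes.

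Among the core genes 8 of 13 were called lower at 15 min and 6 of 13 at 35 and at 55 min, with median log2 ratios of -0.52, -0.64 and -0.29. ATG14, which directs the lipid kinase complex to autophagy, was the furthest below WT. It read 8.79, 9.28 and 8.79 in eco1-W216G at 15 min, against 10.50, 10.38 and 10.26 in WT (log2 ratio -1.43, SE 0.21, adjusted p = 7.64e-06). At 35 min it read 8.74, 8.87 and 8.75 in eco1-W216G, against 10.27, 10.72 and 9.97 in WT (log2 ratio -1.53, SE 0.21, adjusted p = 2.33e-06). At 55 min it read 8.59, 8.89 and 8.66 in eco1-W216G, against 10.00, 10.47 and 9.88 in WT (log2 ratio -1.40, SE 0.21, adjusted p = 1.25e-05). The strains did not overlap at any starved time, and at 0 min the ratio was -0.14 (adjusted p = 0.676).

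ATG7 read 10.78, 11.56 and 10.92 in eco1-W216G at 15 min, against 12.17, 12.18 and 12.23 in WT (log2 ratio -1.10, SE 0.18, adjusted p = 1.91e-05). Its ratio was -1.13 at 35 min and -1.04 at 55 min, and the arrays of the strains did not overlap at 15 min. ATG16, a partner of the ATG12 and ATG5 conjugate, read 5.94, 5.70 and 5.70 in eco1-W216G at 15 min, against 7.26, 7.18 and 6.24 in WT (log2 ratio -1.11, SE 0.27, adjusted p = 0.00142). This probe set read near BAR1 at 0 min in all strains, with group means down to 0.36 log2 units above BAR1. Its eco1-W216G means at 35 and 55 min were also low, 5.66 and 5.47, while BAR1 averaged 4.57 in that strain. The ratios of ATG16 thus rest in part on readings near the floor. ATG16 did not pass the test at 35 min (log2 ratio -0.64, adjusted p = 0.0501), and its call at 55 min was lost without any single eco1-W216G replicate or without WT replicate 1 or 2 (adjusted p up to 0.13).

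Of the other core genes, ATG9, the membrane protein that seeds the sac, had log2 ratios of -0.88, -1.13 and -0.97 at 15, 35 and 55 min. ATG4, the protease that trims ATG8, had ratios of -0.74, -0.86 and -0.78, and ATG1 had ratios of -0.51, -0.86 and -0.62. ATG2, which moves lipid to the growing membrane, was called lower at 15 min (-0.89) and 35 min (-0.67), but its ratio at 55 min was -0.03. ATG3 was called lower at 15 min alone (-0.52). ATG5 was called higher at 15 min (0.32, SE 0.11, adjusted p = 0.0149), and ATG12 and ATG18 were called at no time. The 15 min calls of ATG1, ATG3 and ATG5 were each lost without eco1-W216G replicate 1, and also without WT replicate 1 or 3 for ATG1, without any other eco1-W216G replicate or WT replicate 1 or 2 for ATG3, and without eco1-W216G replicate 3 or WT replicate 3 for ATG5 (adjusted p up to 0.146, 0.154 and 0.102).

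ATG8, with the second largest ratio at 0 min, gave no call in starvation. It read 12.91, 12.98 and 12.88 in eco1-W216G at 15 min, against 13.25, 13.01 and 13.03 in WT. At 35 min it read 12.82, 12.97 and 12.90 in eco1-W216G, against 12.85, 13.36 and 13.17 in WT, and at 55 min 12.72, 12.63 and 12.77 in eco1-W216G, against 12.94, 12.75 and 13.22 in WT. The log2 ratios were -0.17, -0.23 and -0.26 (SE 0.28), and the 95% confidence interval at 15 min ran from -0.74 to 0.39.

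Among the 6 regulatory genes, ATG29 and ATG31, whose products bind each other and ATG17, were called lower at all 3 starved times, and ATG13, ATG17, ATG38 and ATG41 were not called at any of them. ATG29 read 8.99, 9.50 and 8.62 in eco1-W216G at 15 min, against 10.55, 10.41 and 9.85 in WT (log2 ratio -1.24, SE 0.24, adjusted p = 0.000217). At 35 min it read 8.33, 9.01 and 8.22 in eco1-W216G, against 9.94, 10.17 and 10.16 in WT (log2 ratio -1.57, SE 0.24, adjusted p = 9.97e-06), 2.97-fold lower. At 55 min it read 8.20, 8.95 and 8.57 in eco1-W216G, against 9.78, 10.32 and 9.83 in WT (log2 ratio -1.40, SE 0.24, adjusted p = 7.48e-05). No eco1-W216G array reached the WT range at any of these times.

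ATG31 read 10.25, 10.41 and 10.13 in eco1-W216G at 15 min, against 11.18, 11.21 and 11.19 in WT (log2 ratio -0.93, SE 0.17, adjusted p = 8.5e-05). At 55 min it read 9.87, 10.46 and 10.09 in eco1-W216G, against 11.26, 11.61 and 11.40 in WT (log2 ratio -1.28, SE 0.17, adjusted p = 1.63e-06). All eco1-W216G arrays lay below all WT arrays at both times. ATG17, the third subunit of that scaffold, had ratios of -0.18, -0.20 and -0.41 at 15, 35 and 55 min, with adjusted p of 0.439, 0.379 and 0.0738. ATG13, which links ATG1 to the scaffold, had ratios of -0.32, 0.23 and 0.08, and ATG41, a partner of ATG9, had ratios of -0.03, -0.15 and -0.12. ATG41 read between 14.32 and 14.70 on the starved arrays of all strains, close to the highest intensity in the table (43883 on the linear scale, log2 15.42).

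Of the 13 Cvt and selective genes, 5 were called lower at 15 min and 6 at 35 and at 55 min (medians -0.31, -0.41 and -0.30). ATG36, the receptor for autophagy of peroxisomes, read 10.81, 11.17 and 10.53 in eco1-W216G at 15 min, against 11.78, 11.78 and 11.72 in WT (log2 ratio -0.93, SE 0.19, adjusted p = 0.000329). At 35 min it read 10.84, 10.62 and 10.63 in eco1-W216G, against 11.92, 12.02 and 11.92 in WT (log2 ratio -1.26, SE 0.19, adjusted p = 6.79e-06). The arrays did not overlap at these times. ATG20, a sorting nexin, had ratios of -0.82, -0.90 and -0.78 at 15, 35 and 55 min, all called. ATG40 was called at 35 min (-0.98, adjusted p = 9.87e-05) and at 55 min (-0.53, adjusted p = 0.0241), although it was higher in eco1-W216G at 0 min; the 55 min call was lost without eco1-W216G replicate 1 or 3 or WT replicate 2 or 3 (adjusted p up to 0.114). ATG26, a sterol glucosyltransferase, was called at 15 min alone (-0.31), and that call was lost without eco1-W216G replicate 1 or 2 or any single WT replicate (adjusted p up to 0.164).

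ATG39, ATG33 and ATG32 were not called at any starved time. ATG39 had log2 ratios of -0.09, -0.51 and -0.05 (SE 0.25), against 3.10 at 0 min. ATG11 was the only Cvt and selective gene called higher in starvation, at 15 min, with 10.76, 10.87 and 11.19 in eco1-W216G, against 10.42, 10.49 and 10.57 in WT (log2 ratio 0.45, SE 0.12, adjusted p = 0.00494). These ranges did not overlap, but the call was lost without eco1-W216G replicate 3 (adjusted p = 0.0713). Of the vacuolar genes, the lipase gene ATG15 had log2 ratios of -0.76, -0.90 and -0.48, called at 15 and 35 min. Its 15 min call was lost without eco1-W216G replicate 1 or 3, scc2-D730V replicate 3 or any single WT replicate (adjusted p up to 0.219), and its 35 min call without eco1-W216G replicate 2 or WT replicate 1 or 2 (adjusted p up to 0.0714). ATG22 was the one member called higher at 55 min, with 12.89, 12.92 and 12.80 in eco1-W216G, against 12.29, 12.37 and 12.22 in WT (log2 ratio 0.58, SE 0.16, adjusted p = 0.00636).

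The members were also sorted by which tests passed over the 4 times. There were 12 genes, against 24.9% of all probe sets, that were not called at 0 min and were called lower at 1 or more starved times (ATG2, ATG4, ATG9, ATG14, ATG15, ATG16, ATG20, ATG21, ATG26, ATG29, ATG31 and ATG36). Another 7 were called higher at 0 min and lower at no starved time (ATG8, ATG10, ATG22, ATG32, ATG33, ATG39 and ATG41), against 8.50% of all probe sets. A further 6 were called higher at 0 min and lower at 1 or more starved times (ATG1, ATG3, ATG7, ATG19, ATG34 and ATG40), against 5.21% of all probe sets. ATG5 and ATG11 were called at 15 min alone, and 7 members were called at no time (ATG12, ATG13, ATG17, ATG18, ATG23, ATG27 and ATG38), against 28.8% of all probe sets. At all 3 starved times 11 members were called lower, namely ATG1, ATG4, ATG7, ATG9, ATG14, ATG19, ATG20, ATG21, ATG29, ATG31 and ATG36, against 12.7% of all probe sets. The sets follow which single tests passed, and the difference between sets was not tested.

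The family rose less in eco1-W216G from 0 min to each starved time than in WT. Within eco1-W216G 30, 26 and 26 of 34 members were called higher at 15, 35 and 55 min than at 0 min, against 23.5%, 23.4% and 23.7% of all probe sets. The median log2 change of the members in eco1-W216G was 0.82, 0.68 and 0.68. The difference between the strains was tested as the change in eco1-W216G minus that in WT, and 21, 21 and 18 members were called lower at 15, 35 and 55 min, against 18.3%, 21.9% and 17.2% of all probe sets. At 1 or more of these times 23 members were called in either direction, against 50.3% of all probe sets. The median of this difference was -0.88, -0.98 and -0.81 over the members and -0.04, -0.05 and -0.03 over all probe sets. The latter takes in probe sets that rose and that fell in WT, so it is not a baseline for a family that mostly rose. Against 0 min, 50.5%, 50.0% and 49.5% of all probe sets were called in either direction in eco1-W216G at these times. In WT 73.8%, 72.8% and 71.2% were. Whether the smaller rise is particular to the family was not tested. Of the 31 members called higher in WT at 15 min, 30 had a smaller change in eco1-W216G and 18 in scc2-D730V. These members were picked by their WT change, which favours a smaller change in another strain. The share over all probe sets called higher in WT was not computed. The 0 min arrays enter each of these differences, so a higher level at 0 min and a lower level in starvation both add to them. Without eco1-W216G replicate 2 the calls within eco1-W216G dropped to 21 of 34 at 15 min (19 higher and 2 lower). For the difference of changes 21, 21 and 19 members were called in either direction at 15, 35 and 55 min. Of these calls 14, 18 and 13 held whichever replicate was left out.

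For ATG39 the difference at 35 min was -3.61 (SE 0.36, adjusted p = 3.27e-08), with a log2 change of 0.41 in eco1-W216G, which did not pass the test (adjusted p = 0.177), and 4.03 in WT. For ATG8 it was -2.38 (SE 0.39, adjusted p = 2.59e-05), with changes of 1.02 in eco1-W216G and 3.40 in WT. ATG40 had a difference of -2.40 (changes of 0.46 in eco1-W216G and 2.86 in WT). Most of the gap in these 3 genes was already present at 0 min. For ATG29 the difference was -2.08 (changes of 1.16 in eco1-W216G and 3.24 in WT) and for ATG14 -1.39 (changes of 0.97 in eco1-W216G and 2.36 in WT), and here the larger part of the gap came from the starved arrays. The 35 min changes within eco1-W216G of ATG8 and ATG40 lost their calls without eco1-W216G replicate 2 (adjusted p = 0.0928 and 0.249), and that of ATG40 also without eco1-W216G replicate 1 (adjusted p = 0.253) or without WT replicate 2 (adjusted p = 0.0522) or 3. ATG22 did not pass the test for a change in eco1-W216G at any time (0.13, -0.05 and 0.28) and rose in WT by 0.80, 0.93 and 0.75.

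ATG10 and ATG27 were the members called lower in starvation within eco1-W216G. Over all probe sets 27.0%, 26.6% and 25.8% were called lower at 15, 35 and 55 min in that strain. ATG10 changed by -0.57, -0.67 and -0.64 at 15, 35 and 55 min in eco1-W216G, while its changes in WT did not pass the test. Without eco1-W216G replicate 3 the 15 and 55 min changes of ATG10 in eco1-W216G lost their calls (adjusted p = 0.0695 and 0.0504). The difference of the changes for ATG10 did not pass either (-0.32, -0.48 and -0.32, adjusted p of 0.33, 0.116 and 0.334), so a fall particular to eco1-W216G was not shown. ATG27 was the one member with a difference called higher, at 55 min (0.34, SE 0.12, adjusted p = 0.0376), where it changed by -0.44 in eco1-W216G and -0.78 in WT, and this call was lost when any single eco1-W216G or WT replicate was left out (adjusted p up to 0.123).

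**Figure D3:**
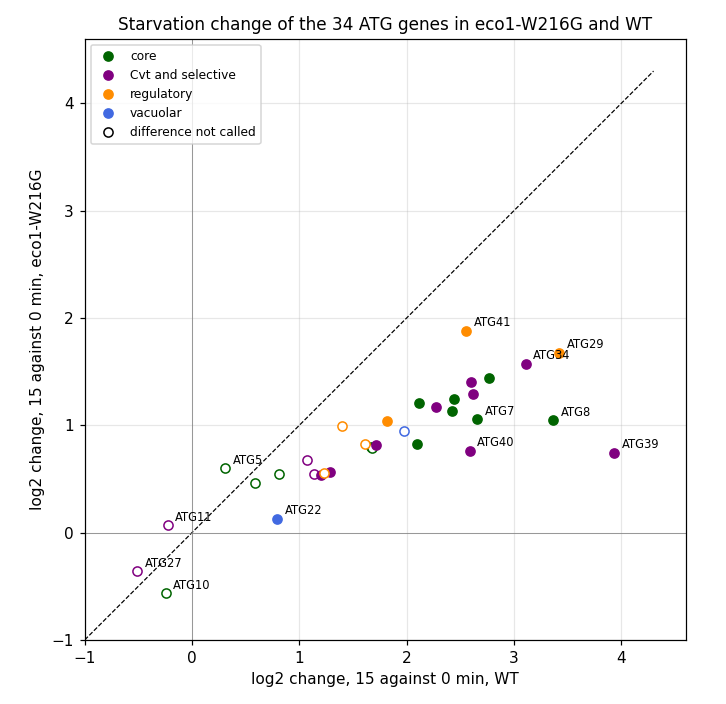
Log2 change from 0 to 15 min in eco1-W216G (y axis) against that in WT (x axis) for the 34 ATG genes, coloured by role, with the line of equal change dashed; filled points are members whose difference in change passed an adjusted p of 0.05. All 21 filled points lie below the line, the furthest being ATG39 with 0.74 in eco1-W216G and 3.93 in WT.

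In scc2-D730V no member differed from WT by the test. At each of the 4 times 0 of 34 members were called, and over all probe sets 0.0350% were called at each time. At an unadjusted p below 0.05 there were 1, 0, 0 and 0 members at 0, 15, 35 and 55 min. The median log2 ratio of the members was 0.02, -0.05, -0.07 and -0.02. The log2 ratios lay between -0.32 and 0.52 at 0 min, between -0.38 and 0.21 at 15 min, between -0.33 and 0.15 at 35 min and between -0.33 and 0.15 at 55 min. All 34 members had a 95% confidence interval within 1 log2 unit of 0 at 15, 35 and 55 min, and 33 had one at 0 min. The exception was ATG39, which read 7.91, 7.05 and 7.42 in scc2-D730V at 0 min, against 6.41, 7.10 and 7.30 in WT (log2 ratio 0.52, interval from 0.00 to 1.04).

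The starvation response was present in scc2-D730V. At 15, 35 and 55 min 31 of 34 members each were called higher than at 0 min, against 36.6%, 36.9% and 36.2% of all probe sets, with median log2 changes of 1.69, 1.46 and 1.61. ATG8 read 12.88, 12.97 and 12.92 in scc2-D730V at 15 min, against 10.86, 9.28 and 9.94 in scc2-D730V at 0 min. No change from 0 min differed from that in WT by the test, and at an unadjusted p below 0.05 there were 0, 1 and 0 members. The scc2-D730V replicate 1 arrays stood furthest from their groups, with an SD of the deviation over all probe sets of 0.51, 0.50, 0.49 and 0.49 log2 units at 0, 15, 35 and 55 min, and leaving them out gave 0 calls against WT as well.

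**Figure D4:**
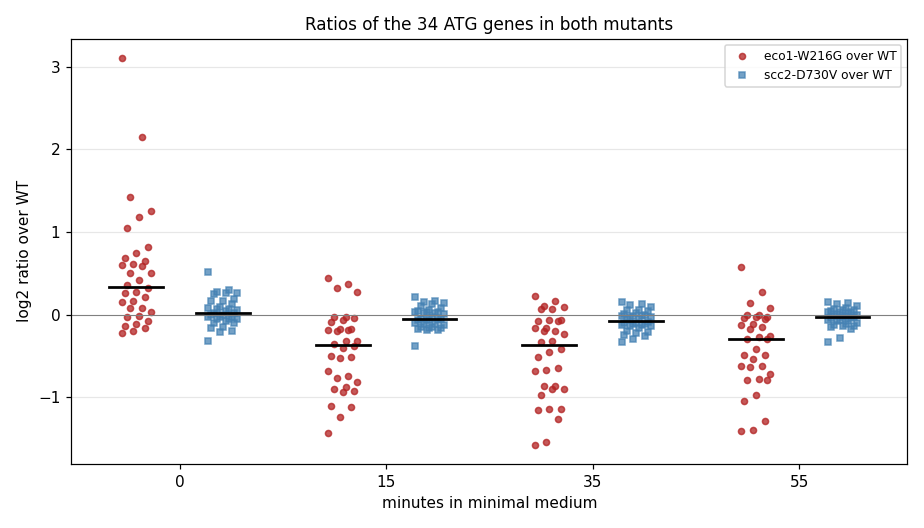
Log2 ratio over WT (y axis) of the 34 ATG genes at each time (x axis, minutes in minimal medium), in eco1-W216G (circles, left of each pair) and scc2-D730V (squares, right), each point being 1 gene from 3 arrays a group and black bars the medians. The eco1-W216G points reach 3.10 at 0 min and -1.57 at 35 min, while the scc2-D730V points stay between -0.38 and 0.52.

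Set against each other, the mutants differed in the family. At 0 min eco1-W216G had 12 members called higher and 0 called lower relative to scc2-D730V, against 12.9% and 9.15% of all probe sets. At 15, 35 and 55 min 13, 13 and 12 members were called lower, against 20.4%, 22.8% and 18.0% of all probe sets, and 1, 0 and 1 were called higher, against 17.2%, 17.1% and 12.8%. With array weights 22 were called higher and 1 lower at 0 min, but no share over all probe sets was computed with weights. ATG39 was 2.58 log2 units higher in eco1-W216G at 0 min (adjusted p = 9.15e-09), with 10.00, 9.78 and 10.35 in eco1-W216G and 7.91, 7.05 and 7.42 in scc2-D730V. These comparisons share the eco1-W216G arrays with those against WT. The number called at 55 min was 8 without eco1-W216G replicate 1 and 13 with all arrays.

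The family holds pairs of related genes. ATG19 and ATG34 encode related receptors and are neighbours on chromosome XV, with 0 annotated genes in the 1774 bases between them (ATG34 at 165714 to 166952 and ATG19 at 168727 to 169974 in the R64 assembly). ATG19 read 10.96, 11.03 and 11.23 in eco1-W216G at 0 min, against 10.55, 10.34 and 10.49 in WT (log2 ratio 0.61, adjusted p = 0.00138), a smaller ratio than the 1.18 of ATG34. At 55 min ATG19 read 11.55, 11.71 and 11.84 in eco1-W216G, against 12.32, 12.41 and 12.24 in WT (log2 ratio -0.62, adjusted p = 0.00082). ATG34 read 11.62, 11.58 and 11.62 in eco1-W216G at 55 min, against 12.12, 12.39 and 12.19 in WT (log2 ratio -0.63, adjusted p = 0.00466). Both were thus higher in eco1-W216G at 0 min and lower at 55 min, with no overlap of arrays. The 35 min call of ATG19 (-0.41) was lost without eco1-W216G replicate 1 or 3 or WT replicate 2 or 3 (adjusted p up to 0.11).

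ATG18 and ATG21 encode related phosphoinositide-binding propellers. ATG21, which acts mainly in the Cvt pathway, read 11.07, 11.32 and 11.23 in eco1-W216G at 15 min, against 12.04, 11.90 and 11.71 in WT (log2 ratio -0.68, SE 0.17, adjusted p = 0.00159). ATG18, which acts in all forms of autophagy, read 11.09, 11.25 and 11.21 in eco1-W216G at 15 min, against 11.19, 11.57 and 11.38 in WT (log2 ratio -0.20, SE 0.16, adjusted p = 0.342). The ATG21 arrays did not overlap and those of ATG18 did. Whether the ratios of the pair differ was not tested. The calls of ATG21 at 35 min (-0.45) and 55 min (-0.48) were lost without eco1-W216G replicate 1 or 3 or WT replicate 2, and at 55 min also without eco1-W216G replicate 2 (adjusted p up to 0.241 and 0.0953).

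Genes that work with the family were read in 4 lists. Of 8 genes for vacuolar hydrolases and Cvt cargo, 5 were called higher in eco1-W216G than in WT at 0 min and 0 lower, against 13.7% and 11.5% of all probe sets. At 15, 35 and 55 min 3, 5 and 5 of them were called lower, against 22.7%, 26.8% and 21.2% of all probe sets. PRB1, which encodes a vacuolar protease, averaged 13.40 at 0 min in eco1-W216G and 11.66 in WT (log2 ratio 1.73, SE 0.14, adjusted p = 1.98e-10). AMS1, which encodes the alpha-mannosidase carried by ATG19 and ATG34, averaged 10.77 at 0 min in eco1-W216G and 9.05 in WT (log2 ratio 1.72, SE 0.20, adjusted p = 1.54e-07). PEP4, which encodes the protease that activates other vacuolar hydrolases, had a ratio of 0.42 at 0 min (adjusted p = 0.000881). The Cvt cargo APE1 was not called at 0 min (0.29) and was called lower at 15 min (log2 ratio -0.64, SE 0.24, adjusted p = 0.0315), as were APE4 (-0.48) and LAP3 (-0.46). All 8 genes rose in WT at each starved time, against 37.2%, 36.9% and 36.2% of all probe sets. The difference of the changes was called lower for 6, 8 and 8 of them, against 18.3%, 21.9% and 17.2% of all probe sets.

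Of 14 genes for membrane and fusion, 2 were called higher in eco1-W216G at 0 min, the SNARE gene VTI1 (0.76, adjusted p = 0.0165) and the sorting nexin gene SNX4 (0.66, adjusted p = 0.0264), and 0 were called higher at each starved time. These 2 of 14 are close to the 13.7% of all probe sets called higher at 0 min, and the median log2 ratio of the list was -0.14, against -0.08 over all probe sets. VAM7, another SNARE gene, had a ratio of -0.70 at 0 min that did not pass the test (adjusted p = 0.0956). At 15, 35 and 55 min the 0 called higher stand beside 18.9%, 20.1% and 17.0% of all probe sets. At these times 2, 6 and 7 of 14 were called lower, against 22.7%, 26.8% and 21.2% of all probe sets. They included at all 3 times VPS30 (-0.68, -0.36 and -0.58) and VPS15 (-0.48, -0.86 and -0.58), subunits of the lipid kinase complex that holds ATG14. CCZ1, needed for fusion with the vacuole, had a ratio of 0.28 at 15 min (adjusted p = 0.0596).

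Nutrient signalling genes were called in the lower direction alone, 4, 5, 6 and 7 of 14 at 0, 15, 35 and 55 min, against 11.5%, 22.7%, 26.8% and 21.2% of all probe sets. The 0 called higher at these times stand beside 13.7%, 18.9%, 20.1% and 17.0% of all probe sets. TOR1, the kinase that restrains autophagy in rich medium, averaged 10.82 at 0 min in eco1-W216G and 11.40 in WT (log2 ratio -0.58, SE 0.15, adjusted p = 0.005), and it was called lower at all 4 times. SNF1, the energy-sensing kinase, was called lower at 0 min (-0.55), 15 min (-0.82) and 35 min (-0.68). GTR2, a GTPase that signals to TORC1, was called lower at 0 min (-0.37), and LST8, a TORC1 subunit (-0.72), and NPR2, a TORC1 inhibitor (-0.62), were called lower at 15 min. Of 11 transcription genes 2 were called lower at 0 min, the histone deacetylase gene RPD3 (-0.32, adjusted p = 0.0246) and the stress activator gene MSN2 (-0.49, adjusted p = 0.0265), and GLN3 was not called (-0.39, adjusted p = 0.0551). At 15 min RPD3 alone was called (-0.34), with RPH1 at -0.39 (adjusted p = 0.0817) and PHO23 at -0.35 (adjusted p = 0.0849). RPD3 was also the 1 gene of this list called lower at 35 min (-0.43) and 55 min (-0.42), against 26.8% and 21.2% of all probe sets. At each of these times 1 gene was called higher, URE2 at 35 min (0.57, adjusted p = 0.0253) and UME6 at 55 min (0.60, adjusted p = 0.0482). Both were named after their values were seen, and 20.1% and 17.0% of all probe sets were called higher at these times. The counts of 2 of 11 at 0 min and 1 of 11 at 15 min stand beside 11.5% and 22.7% of all probe sets called lower. In scc2-D730V 0 genes of the 4 lists were called against WT at any time, against 0.0350% of all probe sets at each time.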

How the data were processed

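RNA from 3 cultures of each strain, each sampled at 4 times, was hybridised to 36 Affymetrix Yeast Genome 2.0 arrays. Arrays of a strain at different times thus share cultures, but the labels do not say which, and the model treated the arrays as independent. The authors normalized the arrays with RMA and deposited 1 table of linear intensity per probe set and array, which holds 5814 probe sets. Here log2 of the deposited intensity was taken with no further normalization. Leaving out 98 control and reporter probe sets left 5716. Strain and time groups were fitted in 1 linear model (12 coefficients, 24 residual degrees of freedom) with limma 3.58.1 in R 4.3.3, and moderated p-values were adjusted by Benjamini-Hochberg over all 5716 probe sets for each comparison. A call is an adjusted p below 0.05. RMA assumes similar overall distributions, so a shift common to all transcripts would not show. Depth has no meaning for arrays, and 3 arrays a group limit the precision. Gene symbols came from the platform annotation, and locations from RefSeq (R64). The code was tested on simulated data. The members, their roles, the 4 lists of partner genes and the tests were chosen with earlier results of these data known. Per-array values are given for members called with arrays that did not overlap (up to 6 with the largest increase and 6 with the largest decrease in eco1-W216G against WT at 0 and 15 min, 3 and 3 at 35 and 55 min, and 4 and 4 in WT at 15 min), for ATG8 and for the pairs ATG19 and ATG34, and ATG18 and ATG21, with up to 3 genes of each partner list at 0 and 15 min. P-values rest on the spread between the 3 arrays within each group, pooled over the 12 groups and moderated over all probe sets. Alternatives covered the samples fitted, blocks, weights, normalization, filters, thresholds and leaving out each replicate.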

Additional observations from a re-analysis of the deposited data

Results flagged for a closer look

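For 23 members the change from 0 min to a starved time differed between eco1-W216G and WT by the test of the difference itself (limma, adjusted p below 0.05 at 1 or more of the 3 times), against 50.3% of all probe sets. The values are the log2 change in eco1-W216G minus that in WT, at the time with the smallest adjusted p. The 3 times share the 0 min arrays and are not independent of each other.

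Of the core genes, ATG8 had a difference of -2.38, ATG1 of -1.68, ATG7 of -1.63, ATG9 of -1.45, ATG14 of -1.39 and ATG4 of -1.02 at 35 min. At 15 min ATG3 had a difference of -1.27 and ATG2 of -0.86, and that of ATG2 was lost without WT replicate 3 (adjusted p = 0.0595).

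Of the Cvt and selective genes, ATG39 had a difference of -3.61, ATG40 of -2.40, ATG34 of -1.86, ATG33 of -1.58, ATG36 of -1.52, ATG32 of -1.01 and ATG20 of -0.98 at 35 min. ATG19 had a difference of -1.23 at 55 min. ATG21 had a difference of -0.67 at 15 min, which was lost without eco1-W216G replicate 1 or 3 or WT replicate 1 or 3 (adjusted p up to 0.114). The one positive value, 0.34 for ATG27 at 55 min, was lost when any single eco1-W216G or WT replicate was left out (adjusted p up to 0.123).

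Of the regulatory genes, ATG29 had a difference of -2.08 and ATG41 of -0.80 at 35 min, and ATG31 of -1.13 at 55 min. Of the vacuolar genes, ATG22 had a difference of -0.98 and ATG15 of -1.17 at 35 min, and that of ATG15 was lost without eco1-W216G replicate 2 or 3 or any single WT replicate (adjusted p up to 0.0978).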

How the results depend on the processing

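No call of a member reversed under any of the 22 alternatives. Several of these, such as a changed threshold, adjustment or filter, keep the log2 ratios of the main fit and could not reverse a call. Taking the mean over all probe sets of a gene repeats the main fit, since each member has 1 probe set. Of 403 calls of single members against WT, over time or in the difference of changes, 326 held under each alternative computed for them. Leaving out the dimmest 25% of probe sets removed 11 of the 34 members from the test, and the counts of members called were then 11 and 9 for eco1-W216G against WT at 15 and 35 min, 8 and 7 for eco1-W216G against scc2-D730V at 15 and 35 min, and 21 and 18 for 15 and 35 min against 0 min in eco1-W216G. With array weights 23 members were called for eco1-W216G against WT at 35 min (21 lower and 2 higher) and 23 for eco1-W216G against scc2-D730V at 0 min (22 higher and 1 lower). At an adjusted p below 0.01, 8 members were called for eco1-W216G against scc2-D730V at 55 min. The cause of the larger counts under array weights was not tested. Shares over all probe sets were not computed for the alternatives, so these counts cannot be set against the shares of the main fit. Leaving out 1 replicate gave 8 to 17 calls for eco1-W216G against scc2-D730V at 55 min and 21 to 32 for 15 min against 0 min in eco1-W216G. The lowest values came without eco1-W216G replicate 1 and without eco1-W216G replicate 2. Against WT the counts in eco1-W216G were then 10 to 15 at 0 min, 13 to 21 at 15 min, 12 to 16 at 35 min and 12 to 16 at 55 min, and those in scc2-D730V stayed at 0. Samples with the same replicate number mostly deviated together, with correlations from -0.33 to 0.88. For replicates 1, 2 and 3 the correlation was above 0.1 in 12, 14 and 14 of 18 pairs across times within a strain. Across strains at the same time it was above 0.1 in 11, 10 and 8 of 12 pairs. The labels do not say what the numbers mark, so the main model did not use them to pair the cultures. With the replicate number as a block, 15, 19, 16 and 16 members were called in eco1-W216G against WT at 0, 15, 35 and 55 min and 25 for the difference of changes at 15 min, against 13, 18, 15, 15 and 21 without it, and no count moved by over 1.5 times. With strain and replicate number together as a random block standing for a shared culture (estimated correlation 0.244), 13, 18, 15 and 15 members were called in eco1-W216G against WT, and 26, 21 and 22 for the difference of changes at 15, 35 and 55 min.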
